A study of Mus musculus with 36 samples.

Results

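Microglia are the resident macrophages of the brain. They are kept in a surveying, so-called homeostatic state by signals from neighbouring cells, among them CSF1 and IL-34 acting on the receptor CSF1R, and TGF-beta acting with the transcription factor SALL1. In that state they carry receptors for nucleotides and for the neuronal chemokine fractalkine, and they make large amounts of complement C1q, cathepsins and the cathepsin inhibitor cystatin C. CD11c, the integrin encoded by Itgax, marks a subset of microglia that gathers at amyloid deposits, and the cells described here were sorted for its absence.

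The population consists of 438 CD11c-negative microglia from the hippocampus of 4 wild-type (WT) male mice aged 6 months, named WT1 to WT4, out of 2657 cells in the whole series. It was chosen by label: all cell barcodes of the 6 libraries whose titles name the WT hippocampus and the CD11c-negative gate, with at least 200 detected genes. One of 439 barcodes was removed, at 111 genes, and the cells just inside the threshold held 209, 274 and 283 genes. Cells were released mechanically in the cold. The gate took nucleated live cells (DRAQ5-positive and DAPI-negative) with high CD11b, intermediate CD45 and no CD11c, and cells were sequenced one by one with a Smart-seq2-based protocol. The 2 groups set beside it passed the same gate at the same age and sex. One is 390 cells of WT cortex from 4 mice titled WT1 to WT4, and the other is 426 hippocampal cells of 4 APP/PS1 mice. APP/PS1 mice carry the APPswe transgene together with a presenilin transgene (PS1) and deposit amyloid, while WT mice are their controls.

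The 6 libraries held 71 to 75 cells and 1207967 to 2215453 counts each, and animal totals ran from 1811995 to 3966045 counts. The median cell held 19406.5 counts and 624 genes, with ranges of 1488 to 109729 counts and 209 to 1628 genes. The mitochondrial share was at most 3.57% in any cell. The genotype tag in the labels reads tg for 2 of the 6 libraries, 1 of the pair from WT1 and the only one from WT2, although their titles name WT mice. Grouping follows the titles here, and values without those libraries are given beside the results. Libraries reused the same set of well barcodes, with 66 to 72 sequences shared between any pair of the 6 libraries. For 5 of 204 directed pairs of libraries, high counts in one library recurred as low counts at the same barcode in another. Genes at 100 counts or more in a cell of the first WT1 library, and rare in the second, were found at the same barcode of the second WT1 library in 91.3% of cases. The corresponding share was 85.2% from the first to the second WT3 library, 81.8% from WT2 to the first WT3 library, 71.2% from a CD11c-positive APP4 cortex library to the first WT1 library, and 47.9% from the second WT1 to the second WT3 library. Other pairs into the 6 libraries had a median of 4.11%. Over the whole series 24 of 1199 directed pairs showed such recurrence, with libraries of WT cortex and APP/PS1 hippocampus among the recipients. Setting entries to 0 that were under 10% of the matching entry in such a donor library took away 0.97% of counts but 15.8% of non-zero entries. Detection rates and the levels of low genes depend on these entries: in the first WT1 library Apoe went from 248 to 152 CPM and Cst7 from 16.7 to 0.455 CPM, while Tmem119 went from 1664 to 1678 CPM. Rates below are from the entries as deposited unless the removal is named.

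The sorted cells carried the microglial identity markers at high and fairly even levels. Tmem119, a microglia-specific membrane protein, stood at 1812, 1851, 2363 and 1958 CPM (counts scaled to a common animal total) in WT1 to WT4, a mean of 1996 ± 252 (SD, n = 4 animals). P2ry12, the ADP receptor that guides process movement, stood at 1817, 2451, 1846 and 1646 CPM, a mean of 1940 ± 352. Cx3cr1, the fractalkine receptor, stood at 1608, 1220, 1672 and 1674 CPM, so WT2 lay below the other 3 animals. Sema4b, a semaphorin, ran from 1162 CPM in WT1 through 1322 and 1494 in WT2 and WT3 to 1716 in WT4. The 4 markers summed to 6903 ± 403 CPM, and the order of their means is not resolved for Tmem119 and P2ry12, whose ranges overlap. Libraries whose tag goes against the title spanned 1851 to 2000 CPM for Tmem119, inside the 1664 to 2572 CPM of the other 4 libraries. Their Cx3cr1 levels of 1220 and 1448 CPM lay below the 1563 to 1793 CPM of the other libraries. On GRCm38 the genes lie at chr5:113793729-113800516 on the minus strand (Tmem119), chr3:59216272-59262871 on the minus strand (P2ry12), chr9:119901616-120069879 on the minus strand (Cx3cr1) and chr7:80186841-80226527 on the plus strand (Sema4b).

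Counts of these markers in single cells followed an on-or-off pattern. P2ry12 was found in 78.3% of cells, Tmem119 in 72.4%, Sema4b in 66.9% and Cx3cr1 in 62.8%. Where found, the median count was 45 for P2ry12, 50 for Tmem119, 32 for Sema4b and 44 for Cx3cr1. A cell that lacked a transcript and a cell in which it was missed cannot be told apart. Across animals the share ran from 66.7 to 83.3% for P2ry12 and from 61.3 to 81.9% for Tmem119. With the donor entries removed the shares were 67.6% (P2ry12), 61.6% (Tmem119) and 52.5% (Cx3cr1). Of the 438 cells, 111 held all 4 markers, 179 held 3, 103 held 2, 41 held 1 and 4 held none. Cells with none or 1 were shallower, with median totals of 8917 and 15800 counts, against 20860 counts for cells with all 4.

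Itgax itself was nearly silent. It gave 13 counts in 1 of 438 cells, in the WT1 library whose tag reads tg, and 0 in the other libraries. Counts of App, the amyloid precursor gene, came to 237 in WT2, 117 in the first WT3 library and 3 in the first WT1 library, and the other 3 libraries held 0. Prnp, the prion protein gene whose promoter drives the transgenes in this strain, gave 6 counts in 4 cells of the first WT1 library and 0 counts once donor entries were removed.

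The cells spent a large share of their counts on few genes, led by the cytoskeleton and by cystatin C. Actb, cytoplasmic beta-actin, was first at 9706, 10845, 13718 and 12198 CPM in WT1 to WT4, a mean of 11617 ± 1732. Cst3, cystatin C, was second at 8009, 8751, 8674 and 9946 CPM, a mean of 8845 ± 806. Actb was above Cst3 in all 4 animals, but per kilobase of exon Cst3 ranks first, ahead of the antisense transcript Adap2os and of Actb. Dpysl2, a cytoskeletal adaptor also known as CRMP2, followed at 6846 ± 192 CPM, and its 4 animals lay between 6593 and 7028. Bmp2k, a kinase of clathrin-coated vesicles, stood at 6713 ± 443 CPM, Adap2os at 6135 ± 816 CPM and the tetraspanin Cd81 at 5663 ± 303 CPM. The nuclear RNA Malat1 stood at 5612 ± 781 CPM. The leading 30 genes also hold receptors and regulators: Ptafr, the platelet-activating factor receptor, at 5338 ± 297 CPM, Bhlhe41, a microglial transcription factor, at 5065 ± 958 CPM, Notch2 at 4766 ± 487 CPM, the cholesterol exporter Abcg1 at 4333 ± 659 CPM, the complement subunit C1qc at 3510 ± 368 CPM and the aspartic protease Ctsd at 3439 ± 328 CPM. Bhlhe41 was lowest in WT4 at 3741 CPM and ran from 5086 to 5992 CPM in the other animals. Arglu1, a splicing regulator, was the steadiest of the named leading genes, with an SD of 52.6 on a mean of 4754 CPM. By length-scaled level, 16 of the 30 are also among the first 30 genes and 27 among the first 100.

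**Figure D1:**
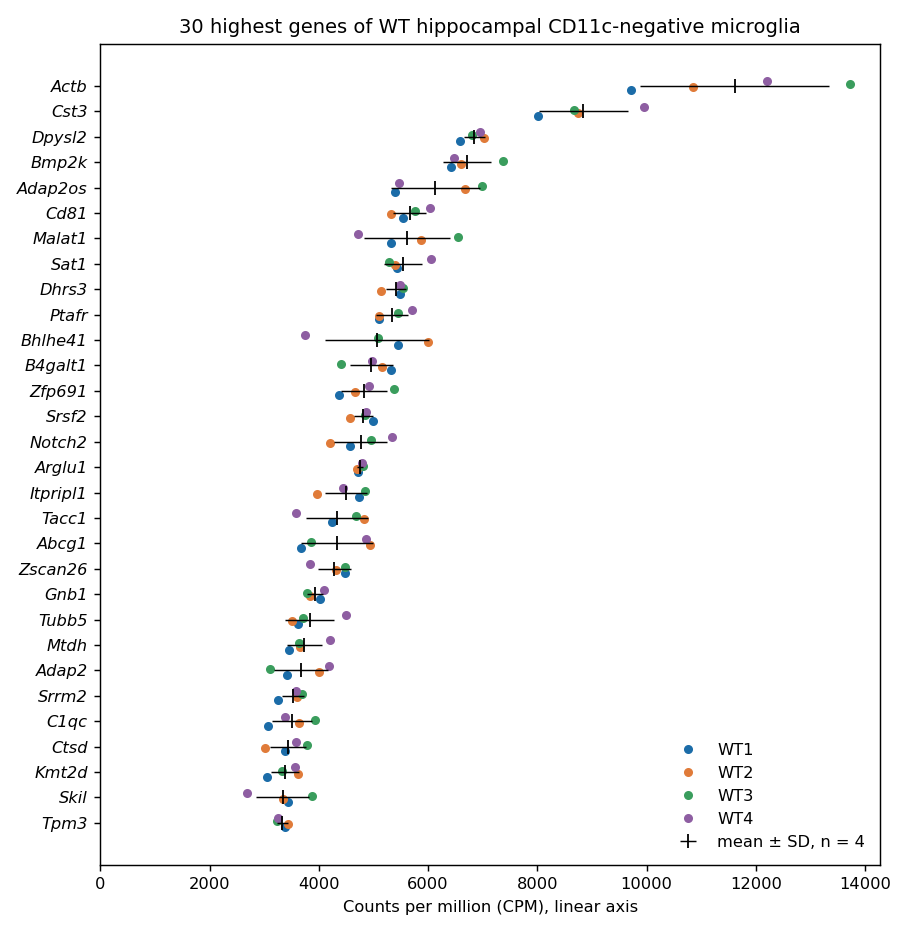
Level of the 30 highest genes, mitochondrial and ribosomal genes and predicted gene models left out, in CPM on a linear axis, with 1 point for each of the 4 animals and a black mark and bar for mean and SD. Actb and Cst3 stand apart on the right at 11617 and 8845 CPM, and the remaining 28 genes fall off evenly from 6846 to 3328 CPM.

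A total of 15891 genes had at least 1 count, and 1731 genes reached 100 CPM. The first 10 genes took 6.82% ± 0.375 of counts, the first 50 took 20.8% ± 0.648 and the first 500 took 57.0% ± 0.976. Between animals, the coefficient of variation had a median of 13.7% over the 154 genes at 1000 CPM or more, 24.6% over the 190 genes from 500 to 1000 CPM, and 46.6% over the 1387 genes from 100 to 500 CPM. Statements about single genes below 500 CPM thus rest on wide errors. The first 50 genes of each group's own ranking took 16.7% ± 1.36 in WT cortex and 16.4% ± 1.27 in APP/PS1 hippocampus. The first 500 took 49.4% ± 2.77 and 47.2% ± 2.15, and the 4 WT hippocampal animals, at 55.8 to 57.9%, lay above all animals of both other groups, whose highest values were 52.7 and 50.2%.

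Genes of the homeostatic programme summed to 30540 ± 1820 CPM. Of 24 listed genes with a row in the files, 23 reached 100 CPM and 10 were found in at least 50% of cells. After Cst3, the P-selectin ligand Selplg led at 2929 ± 342 CPM and was found in 86.3% of cells. The growth factor receptor Csf1r stood at 2049 ± 568 CPM in 74.4% of cells, ranging from 1416 CPM in WT2 to 2777 CPM in WT4. Gpr34, a lysophosphatidylserine receptor, stood at 1801 ± 391 CPM in 82.2% of cells. Sparc, a matrix protein, stood at 1565 ± 231 CPM and Fcrls, an Fc receptor-like protein of mouse microglia, at 1019 ± 297 CPM.

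Transcription factors of microglia were less evenly found. Bhlhe41 was present in 98.2% of cells, and 17 of 28 listed factors reached 100 CPM. Spi1, which encodes PU.1, stood at 258, 578, 209 and 370 CPM in WT1 to WT4 and was found in 22.1% of cells. Irf8 stood at 342 CPM in 21.7% of cells. Sall1 stood at 182 ± 76.7 CPM and was found in 9.6% of cells, with 81.2 CPM in WT1 and 251 CPM in WT4. Mef2d and Klf2 were at 0 counts. Among growth factor and cytokine receptors the interferon-gamma receptor chain Ifngr1 was high and steady, at 2608 ± 85.8 CPM in 94.3% of cells.

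The 3 chains of complement C1q differed in level although they are subunits of one protein. C1qc stood at 3071, 3644, 3935 and 3389 CPM in WT1 to WT4, C1qb at 2498, 1777, 2625 and 2920 CPM, and C1qa at 885, 1557, 1642 and 834 CPM. In each animal C1qc was highest and C1qa lowest. Per kilobase the order changed, with C1qb at 2256, C1qc at 1818 and C1qa at 1182 CPM per kilobase. C1qc was found in 96.1% of cells, C1qb in 82.4% and C1qa in 67.6%. C5ar2, the second receptor for C5a, stood at 1900 CPM, and 6 of 15 complement genes were at 0.

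Lysosomal genes summed to 26010 ± 1391 CPM, and 26 of 34 reached 100 CPM. Ctsd was followed by the asparaginyl protease Lgmn at 2915 CPM, the GM2 activator Gm2a at 2757 CPM, Ctss at 2272 CPM, Laptm5 at 2259 CPM and Ctsb at 2129 CPM. Phagocytic and pattern recognition receptors summed to 7569 ± 822 CPM. Trem2, a lipid-sensing receptor, stood at 967, 1315, 1100 and 1363 CPM in WT1 to WT4 and was found in 56.2% of cells. Its signalling adaptor Tyrobp stood at 771 CPM in 47.3% of cells and the related adaptor Fcer1g at 860 ± 135 CPM in 35.4%. Aif1, which encodes the common microglial stain IBA1, was found in only 23.7% of cells, at 709 ± 313 CPM and with a median count of 31 where found.

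Activation genes were low. The core list of disease-associated microglia summed to 2168 ± 471 CPM, with Serpine2 at 832 CPM, Cd9 at 679 ± 34.1 CPM and Ccl6 at 294 CPM, and 5 of its 20 genes, Spp1 among them, were at 0. Interferon response genes summed to 364 ± 92.9 CPM over 29 genes, and inflammatory cytokines and chemokines to 437 ± 232 CPM over 19 genes. Immediate early genes, which rise with tissue handling, summed to 2037 ± 141 CPM, led by Btg2 at 602 CPM and Jund at 392 CPM. MHC class I genes summed to 3880 ± 395 CPM, with beta-2 microglobulin (B2m) at 1278 ± 43.8 CPM. Cell cycle genes summed to 4050 ± 502 CPM, of which the tubulin gene Tubb5 made up 3830 CPM, and the mitotic genes Cdk1, Ccnb1, Cdc20 and Tpx2 were at 0. The glycolytic enzyme gene Gapdh, often used as a reference gene, stood at only 6.12 CPM.

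Apoe, the main brain apolipoprotein gene, stood at 215, 102, 280 and 807 CPM in WT1 to WT4, so WT4 was far above the others. It was found in 28.3% of cells, and in 15.5% with donor entries removed. In the first WT1 library the share fell from 74.3% to 13.5% on that removal, and the share of cells with Cst7, the gene of cystatin F, fell there from 27.0% to 1.35%. MHC class II genes summed to 805 ± 737 CPM, from 315 CPM in the lowest animal to 1901 CPM in WT4. One cell of WT4, the deepest of the population at 109729 counts and 908 genes, held 1506 of all 1813 counts of H2-Ab1 (83.1%), 466 of those of Cd74 (91.7%) and 450 of those of H2-Aa (99.3%). It also held 96.3% of the counts of Cybb, a subunit of the phagocyte oxidase, 394 counts of Lyz2 and 23.4% of the counts of Apoe. It had 0 counts of Tmem119, P2ry12 and Cx3cr1 and 1 of Sema4b, but 264 counts of C1qc and 621 of Cst3. Counts of Mrc1, Pf4 and F13a1, markers of border-associated macrophages, and of Ccr2, a monocyte marker, were 0 in it. Without this cell the MHC class II sum was 499 ± 155 CPM (315 to 674), H2-Ab1 fell from 230 ± 446 to 36.0 ± 58.4 CPM, and Apoe stood at 257 ± 136 CPM.

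Markers of other cell types were scarce. Border-associated macrophage markers summed to 110 ± 28.6 CPM, with 5 of 8 genes at 0, Mrc1 and Pf4 among them. Neutrophil markers summed to 0.366 CPM, and those of red blood cells were all at 0. Monocyte markers summed to 106 ± 111 CPM (0 to 261), nearly all of it Lyz2. Neuronal markers summed to 126 ± 98.8 CPM (21.4 to 228) and were found in 13.9% of cells. Astrocyte markers summed to 343 ± 126 CPM, of which the glutamate transporter gene Slc1a3 gave 337 CPM, while Aqp4 and S100b were at 0. Oligodendrocyte markers summed to 704 ± 185 CPM, of which Trf gave 674 CPM, and 9 of 15 were at 0. In the endothelial list Bsg gave 321 of 365 CPM, and 12 of 14 genes were at 0. The lymphocyte list rested on Ighm, at 566 of 618 CPM, and the dendritic cell list (736 CPM) on Siglech at 672 CPM, a gene that microglia also carry.

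Detection was steep in level. Counting a gene as found at 1 count or more, 39 genes were in at least 90% of cells, 182 in at least 50% and 1289 in at least 10%, while 3547 genes were found in a single cell. Actb, Cst3 and Lrrc58 were found in every cell, but Actb alone with donor entries removed, when 17 genes were in at least 90% of cells. The number found in at least 50% of cells was 93 when 5 counts were asked for, 138 with donor entries removed and 126 when each cell was thinned to 5000 counts, which left out 11 cells. A few genes were found far more often than their level would place them. Jund was found in 50% of cells at 392 CPM, and Card9, an adaptor of fungal sensing, was found at only 231 CPM with a low median count. At the other end, H2-Ab1 reached 230 CPM from 3.42% of cells and Aif1 709 CPM from 23.7%.

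**Figure D2:**
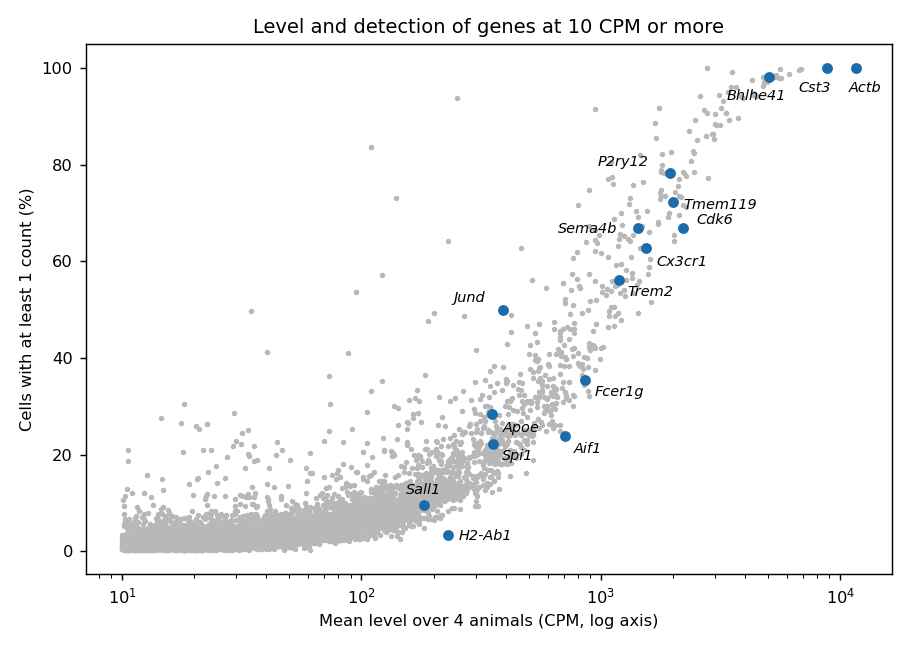
Share of the 438 cells with at least 1 count (vertical axis, %) against the mean level over 4 animals (horizontal log axis, CPM) for genes at 10 CPM or more, with named genes in blue. The identity markers lie between 62.8 and 78.3%, Jund at 50% lies above genes of like level, and H2-Ab1 at 3.42% lies below them.

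Cell-to-cell spread fell with level, and some genes stood off that trend. Each cell was thinned to 5000 counts, the coefficient of variation (CV) was taken within each library, and a gene's excess was measured as log2 of CV squared above the median of the 100 genes nearest in level. Over 403 genes at 100 CPM or more and found in at least 20% of thinned cells, the CV had a median of 204% and ran from 46.7 to 362%. In all 4 animals, 118 genes lay above and 123 below their neighbours. Without the libraries whose tag goes against the title, 128 lay above, where fewer animals had to agree. Named genes are those on the same side of their neighbours in all 4 animals, with mitochondrial and ribosomal genes and predicted gene models left out. Of the genes left out, 1 lay above in all 4 animals with an excess over 1 on the log2 scale. Among the rest Cdk6, a cyclin-dependent kinase, varied most for its level. Its CV was 157, 159, 146 and 166% in WT1 to WT4, an excess of 0.96 ± 0.20 on the log2 scale. The adaptor Fcer1g had a CV of 240, 231, 232 and 369%, an excess of 0.88 ± 0.37. Herpud1, a stress gene of the endoplasmic reticulum, had a CV of 264%, the methyltransferase gene Nsd3 193% and the phospholipase gene Ddhd2 250%. These 5 genes kept a positive excess in all 11 alternatives tried. Ttc5, Pnisr and Cyth4 were also among the 15 with the largest excess, but each changed sign in 1 alternative.

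Against their neighbours the steadiest genes for their level were Lrrc58, at a CV of 48.4% on 2777 CPM, and Bmp2k at 46.7%, Adap2os at 48.4%, Malat1 at 49.4%, Cst3 at 52.3% and Actb at 54.5%. Hyou1, a chaperone of the endoplasmic reticulum, had a CV of 105% on 1102 CPM. Lrrc58, Bmp2k, Adap2os, Malat1, Arglu1, Hyou1 and Ptafr kept a negative excess in all 11 alternatives, but its size depends on the trend. Against a quadratic trend of spread on level it was -2.36 for Lrrc58 and -1.52 for Hyou1, but -0.45 for Bmp2k, -0.34 for Adap2os, -0.51 for Malat1 and -0.01 for Ptafr, whose animals then lay on both sides of it. For the highest genes the 100 neighbours lie at lower levels, and against the quadratic trend Actb had an excess of 1.45, Cst3 of 0.86 and Dpysl2 of 0.47 on the log2 scale, so these 3 genes cannot be called steady or variable for their level.

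**Figure D3:**
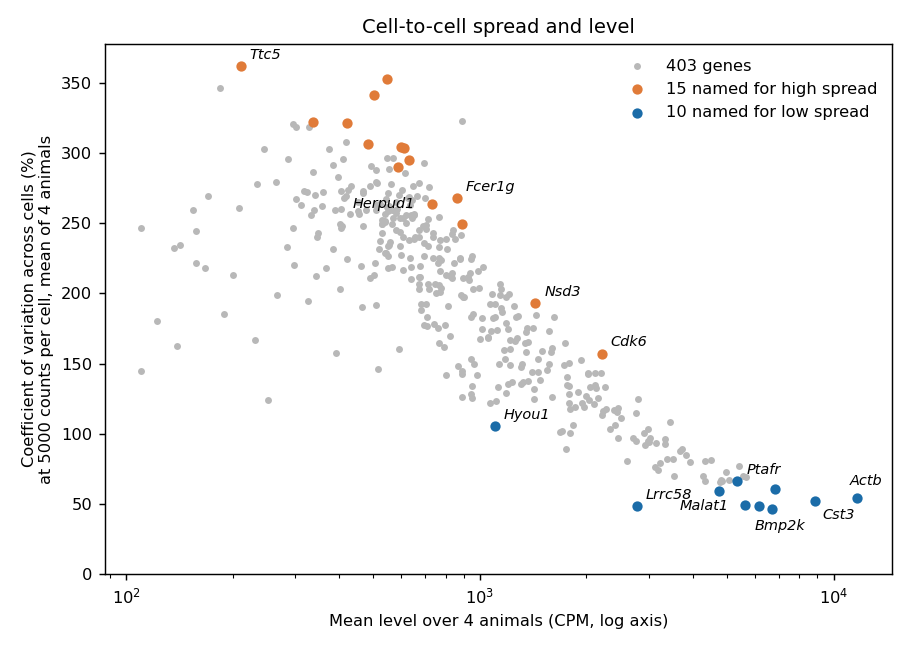
Coefficient of variation across cells at 5000 counts per cell (vertical axis, %, mean of 4 animals) against mean level (horizontal log axis, CPM) for 403 genes, with the 15 genes named for high spread in orange and the 10 named for low spread in blue. Cdk6 at 157% lies above genes near 2210 CPM, and Lrrc58 at 48.4% and Hyou1 at 105% lie below genes of like level.

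Co-expression within the population was weak. Spearman's rho was computed across thinned cells within each library and averaged over animals, for 173 genes found in at least 30% of thinned cells of every library. Over the 14878 gene pairs the median was 0.012, with the lowest and highest 1% of pairs beyond -0.15 and 0.18. All pairs share the cells, their depth and the thinning, so the values are a description. In total 699 pairs (4.7%) were positive in all 6 libraries, and 80 of them reached a mean of 0.2. The identity markers did not vary together: the 6 pairs among Tmem119, P2ry12, Sema4b and Cx3cr1 had a median rho of 0.022 and ran from -0.05 to 0.13. The partner nearest to Tmem119 was Cx3cr1 at 0.13, which ran from -0.16 to 0.27 over libraries.

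The strongest pairs were of near-identical or overlapping genes. Ubb and the gene model Gm1821 had a rho of 0.94, Csnk2a1 and Gm10031 one of 0.91, and the tropomyosin gene Tpm3 and its retrogene Tpm3-rs7 one of 0.75, and reads of such copies may be split between them. Adap2 and the antisense Adap2os overlap on chromosome 11 over 18769 bases from gene start to end, introns included, on opposite strands. They had a rho of 0.50. The sources used here do not give the strand setting of the counting, so reads from any shared exon stretch may not be told apart. The overlap of their exons was not computed. Among genes at separate places, Cst3 and Actb led at 0.63, from 0.36 to 0.78 over the 6 libraries. Actb also varied with Bmp2k (0.40), Malat1 (0.35), Bhlhe41 (0.32) and Dpysl2 (0.32), and Cst3 with Cd81 (0.33). Hnrnpl, a splicing factor gene, varied with Lrrc58 at 0.33, with every library between 0.30 and 0.39.

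Part of this moves with the number of genes per cell. The share of counts from Actb correlated at -0.74 with the number of genes found in a cell, from -0.84 to -0.69 over libraries, and that of Cst3 at -0.60, from -0.70 to -0.36. The shares from Adap2os, Malat1, Bmp2k and Cd81 correlated at -0.48, -0.35, -0.34 and -0.32. After total counts and genes per cell were taken out of the ranks, 23 pairs remained at 0.2 or more and positive in every library, 19 of them among the original 80. Cst3 and Actb then had a rho of 0.35, Hnrnpl and Lrrc58 one of 0.27, Cst3 and Cd81 one of 0.21, and Actb and Bmp2k one of 0.08. Without the libraries whose tag goes against the title 135 pairs passed, and without WT3 124, where fewer libraries had to agree.

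**Figure D4:**
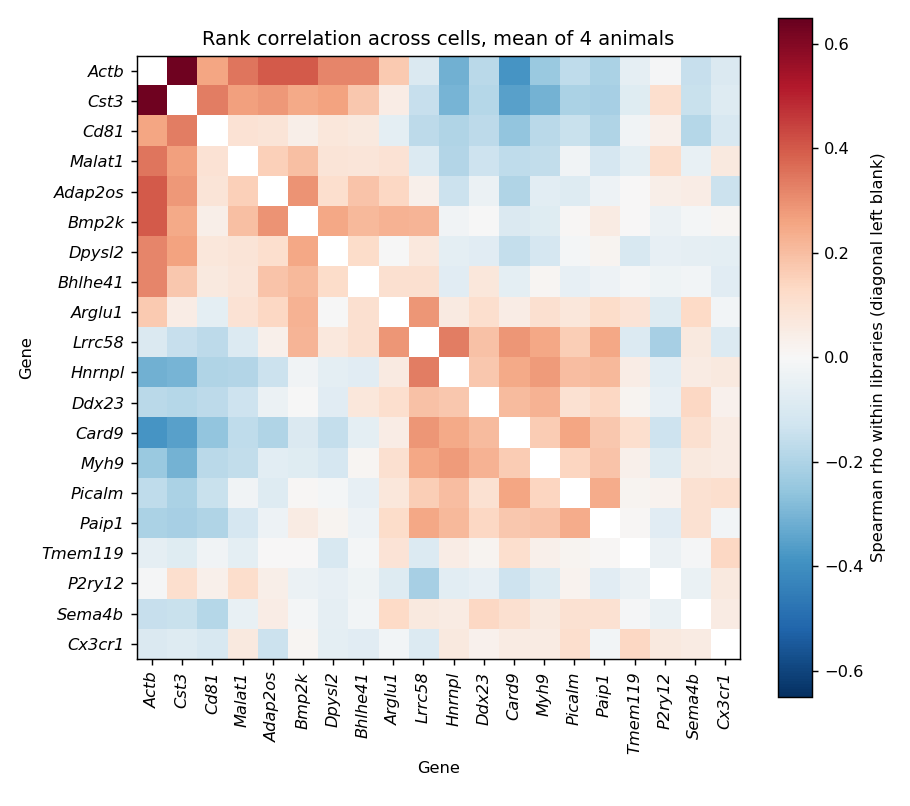
Spearman's rho across cells within libraries, mean of 4 animals, for 20 genes chosen after their values were seen (16 of the strongest pairs and the 4 identity markers), with red for positive and blue for negative values and the diagonal left blank. The block from Actb to Bhlhe41 has 28 positive pairs with a median of 0.23, the block from Lrrc58 to Paip1 has 21 positive pairs with a median of 0.21, and 47 of the 56 pairs between the blocks are negative with a median of -0.11.

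Cells of the WT hippocampus held fewer genes at equal depth than those of either neighbouring group. At 5000 counts per cell, WT1 to WT4 had 466, 424, 468 and 390 genes per cell, a mean of 437 ± 37.1. The 4 WT cortex animals had 563, 658, 514 and 624 (590 ± 63.7), and the 4 APP/PS1 hippocampus animals 612, 583, 649 and 642 (622 ± 30.5). The groups did not overlap, with differences of -153 and -185 genes and a two-sided exact permutation p of 0.0286 for each, the smallest that 4 against 4 allows. Leaving out any 1 animal of WT hippocampus gave an exact permutation p of 0.0571 against cortex. With the WT1 to WT4 titles as pairs the exact sign-flip test cannot go below p = 0.125, which the cortex difference had. Without the libraries whose tag goes against the title the differences were -157 and -175 genes, where the exact test of 3 animals against 2 or 3 cannot go below 0.1. Unthinned, the median cell had 624 genes in WT hippocampus, 741.5 in WT cortex and 860.5 in APP/PS1 hippocampus. All these gene numbers are from the entries as deposited. Low counts recurred at the same barcode in both other groups too, as from WT4 to APP1 hippocampus (86.2% of cases). Mitochondrial genes took 0.707, 0.591, 0.651 and 0.722% of counts in WT1 to WT4, a mean of 0.668% ± 0.0599, against 1.27% ± 0.484 in WT cortex and 1.14% ± 0.0450 in APP/PS1 hippocampus (exact permutation p = 0.0286 for each, two-sided). Without WT2 of the cortex, the highest animal, the difference from cortex fell from -0.602 to -0.363 percentage points, and without single hippocampal animals its exact permutation p was 0.0571 to 0.0857. The first number in the library titles, 7 or 8 for WT hippocampus, 1 or 2 for WT cortex and 9 or 10 for APP/PS1 hippocampus, follows the groups exactly, and its part in these differences cannot be told apart from the group.

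**Figure D5:**
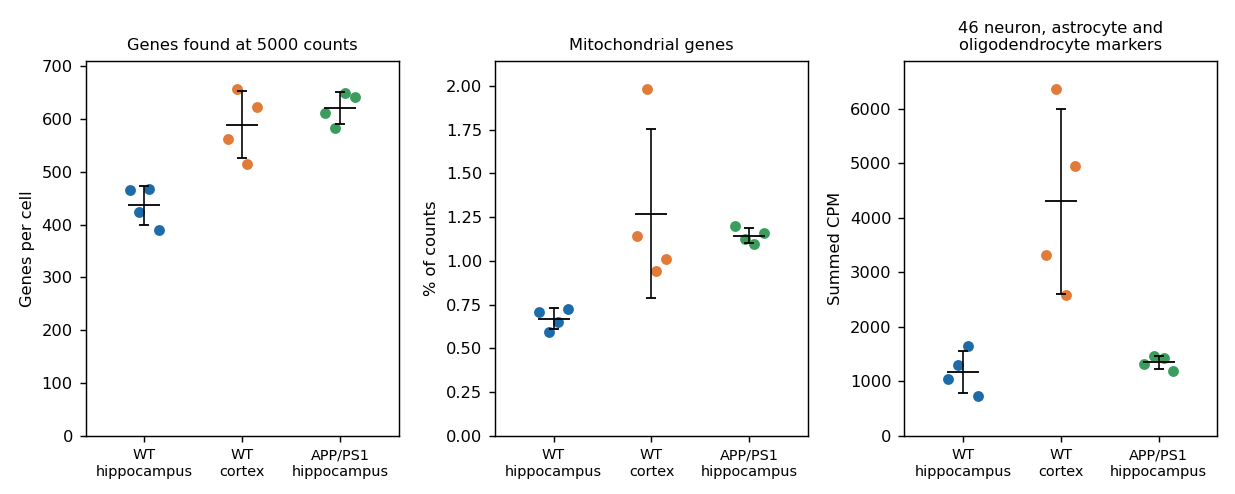
Genes per cell at 5000 counts, mitochondrial share of counts (%) and the summed level of 46 neuron, astrocyte and oligodendrocyte markers (CPM), with 1 point per animal and a black line and bar for mean and SD (n = 4 per group). WT hippocampus lies below both other groups in the first 2 panels (437 genes and 0.668%), and in the third WT cortex stands apart at 2577 to 6367 CPM.

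Counts were summed per animal title, region and gate and compared in 1 edgeR fit over all 6 groups of the series, 23 replicates and 14892 genes. In the CD11c-positive APP/PS1 hippocampus, the replicates titled APP1-2 and APP2-3 each name more than 1 animal, and both name APP2. The fit takes them as independent. Levels from here on are TMM-scaled CPM, fold changes are on the log2 scale ± SE, and a gene counts as called where edgeR's quasi-likelihood test gave a p below 0.05 after Benjamini-Hochberg adjustment. In sums over cells, fewer cells carrying a gene and less RNA per cell cannot be told apart.

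Against WT cortex, hippocampal microglia had more of several high microglial transcripts and far less of neuronal and glial ones. In all, 243 genes (1.63% of those tested) were called, 35 higher (0.235%) and 208 lower (1.4%). Values did not overlap between the groups for 799 genes (5.37%). The calls rest on the fit over 6 groups: 0 genes were called with only the 2 groups, with the title numbers as a replicate block (528 genes at unadjusted p below 0.05) or without it (491 genes), and 0 without the libraries whose tag goes against the title (2041 genes), where WT cortex keeps 2 animals. With genes per cell as a covariate, 0 were higher and 17 lower. Single animals also decide the count: it was 96, 139 and 111 without WT2, WT3 or WT4 of the hippocampus, and 111 and 123 without WT2 or WT4 of the cortex.

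Plxdc2, a plexin domain protein that microglia carry, stood at 774, 573, 811 and 906 CPM in the hippocampus and at 415, 189, 182 and 296 CPM in the cortex of WT1 to WT4, and was 1.503 ± 0.290 higher (adjusted p = 0.00938). The groups do not overlap. Lpcat1, an enzyme of phospholipid remodelling, stood at 1405, 1323, 1694 and 1354 CPM against 692, 497, 736 and 791 CPM and was 1.09 ± 0.21 higher (adjusted p = 0.00938). Cdk6, named above for its high spread, stood at 2377 against 1157 CPM (1.04 ± 0.24, adjusted p = 0.0285). Among called genes at 50 CPM or more whose groups do not overlap, the largest fold upward was that of Nipbl, a cohesin loader, at 209 against 54.0 CPM (1.95 ± 0.49, adjusted p = 0.0384), which was 0.88 without the libraries whose tag goes against the title. Dtx4, a Notch pathway ubiquitin ligase, stood at 357 against 109 CPM (1.71 ± 0.40, adjusted p = 0.0285). Ythdf2, a reader of m6A marks in RNA, Arap3 and Pan3 were higher by 0.93, 0.88 and 0.80. Plxdc2, Lpcat1 and Arap3 stayed past the threshold without any single animal. Cdk6, Nipbl, Dtx4, Ythdf2 and Pan3 each lost the call when 1 animal was left out, WT3 of the hippocampus in every case and others for all but Pan3, with adjusted p up to 0.129.

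Of 24 homeostatic genes, 3 were higher and 0 lower by edgeR (7 at unadjusted p below 0.05; 3 higher by limma voom and 5 by DESeq2, 0 lower by either), with a list median of 0.40 beside -0.22 over all genes tested. They were Csf1r at 2184 against 1236 CPM (0.82 ± 0.18, adjusted p = 0.0214), Selplg at 3134 against 2142 CPM (0.55 ± 0.11, adjusted p = 0.00938) and Cst3 at 9437 against 7181 CPM (0.39 ± 0.08, adjusted p = 0.0138). For Csf1r the 2 groups overlap, with WT2 hippocampus at 1432 CPM below WT1 cortex at 1797 CPM. Without WT4 of the hippocampus the adjusted p was 0.111 for Csf1r and 0.0571 for Cst3, and without WT1 it was 0.0651 for Selplg. Csf1r also lost its call without WT1 of the hippocampus or WT2 or WT4 of the cortex, and Cst3 without WT3 of the hippocampus. Of 34 lysosomal genes, Ctsd (3695 against 2554 CPM, adjusted p = 0.0490) and Laptm5 (2409 against 1664 CPM, adjusted p = 0.0138) were higher and 0 lower by edgeR (11 at unadjusted p below 0.05; 1 higher and 0 lower by limma voom, 2 and 1 by DESeq2). The call of Laptm5 was lost without WT1 or WT2 of the hippocampus, and that of Ctsd without any 1 of 7 of the 8 animals. None of the 4 identity markers was called by edgeR, with 1 at unadjusted p below 0.05, and limma voom and DESeq2 each called 1, Tmem119. It had 2148 against 1519 CPM (0.50 ± 0.14, adjusted p = 0.0743 by edgeR and 0.0409 by DESeq2), and the adjusted p values of Sema4b, Cx3cr1 and P2ry12 were 0.359, 0.403 and 0.613. Of the 30 leading genes 14 were higher, and since these were picked for a high level in WT hippocampus that count is no independent support.

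The lower genes were led by transcripts of other brain cells, several of which had no count in the hippocampal cells. The kinesin gene Kif1a (at least 442-fold lower, computed against 3 counts over the hippocampal group), the RNA-binding protein gene Arpp21 (at least 393-fold) and the phosphatase gene Ptprd (at least 368-fold) were at 0 in all 4 hippocampal animals. Of 17 neuronal markers 7 were called lower, among them Meg3 at 32.4 against 577 CPM (adjusted p = 0.0285). Of 14 astrocyte markers 6 were lower, among them Slc1a2 at 1.55 against 222 CPM (adjusted p = 0.0182), and of 13 oligodendrocyte markers tested 3 were lower, among them Mobp and Mbp. Neuronal markers summed to 126 CPM in WT hippocampus, to 1876 CPM (751 to 2758) in WT cortex and to 141 CPM in APP/PS1 hippocampus, on plain CPM. The 46 neuron, astrocyte and oligodendrocyte markers together summed to 1173 ± 387 CPM in WT hippocampus, 4304 ± 1695 CPM in WT cortex and 1348 ± 120 CPM in APP/PS1 hippocampus. Of genes at 500 CPM or more, 28 were higher and 2 lower, so the lower calls lie almost wholly among genes that are low in microglia. The part of these transcripts in the other differences from cortex was not tested. The cell with the most genes held 3558, 3597 and 7338 genes in WT2, WT3 and WT4 of the cortex, but 1586 in WT1. In WT hippocampus no cell held more than 1628 genes. What such cells gave to the cortex sums and to the lower calls was not tested. Kif1a, Arpp21 and Ptprd stayed past the threshold without any single animal, while Meg3 and Slc1a2 lost their calls without WT2 of either region, with adjusted p up to 0.0854, and without some of the others. The mitochondrial ribosomal RNA mt-Rnr1 was lower at 346 against 1039 CPM (-1.59 ± 0.36, adjusted p = 0.0262), a call lost without WT2 of the cortex (adjusted p = 0.118) or without WT2 or WT3 of the hippocampus.

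Against CD11c-negative microglia of the APP/PS1 hippocampus, the WT cells were set apart by higher levels of many abundant genes. In all, 226 genes (1.52%) were called, 177 higher (1.19%) and 49 lower (0.329%), and values did not overlap for 694 genes (4.66%). The split depends on the scaling: 139 were higher and 57 lower with size factors of the RLE kind, and 113 and 69 with library totals alone, which shift the median log2 fold change of all genes from -0.01 to -0.14 and -0.27. It also depends on the method, with 216 higher and 197 lower by limma voom, and 379 higher and 648 lower by DESeq2. Without the libraries whose tag goes against the title 96 were higher and 10 lower, and 64 and 11 once genes per cell entered the fit.

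Dpysl2 stood at 7367, 7111, 7981 and 6837 CPM in WT1 to WT4 and at 3643, 3558, 3747 and 4112 CPM in the APP/PS1 animals, and was 0.96 ± 0.11 higher in WT (adjusted p = 2.19e-05). Every WT animal lies above every APP/PS1 animal by a wide margin. Notch2, a receptor that controls cell fate, stood at 5103 ± 643 against 2226 ± 386 CPM (1.20 ± 0.14, adjusted p = 2.19e-05). The chromatin gene Kmt2d and the centrosomal gene Tacc1 had the same adjusted p. Abcg1 stood at 4107, 4987, 4524 and 4788 CPM against 2254, 2317, 2152 and 2036 CPM (1.07 ± 0.16, adjusted p = 0.000212). Dpysl2, Notch2, Kmt2d, Tacc1 and Abcg1 passed the threshold in all 19 alternatives. Of the 30 leading genes 24 were higher and 0 lower by edgeR (25 higher and 0 lower by limma voom, 24 and 1 by DESeq2), again on a list picked for its level in WT hippocampus. The 6 not called were Actb, Cst3, Cd81, Malat1, C1qc and Ctsd.

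Sema4b was the 1 of 4 identity markers that was called, at 1298, 1337, 1751 and 1686 CPM in WT against 788, 667, 721 and 719 CPM in APP/PS1 animals (1.07 ± 0.18 higher, adjusted p = 0.00113). It passed in all 19 alternatives, with an adjusted p of 0.0459 without the libraries whose tag goes against the title. The other 3 markers were not called, with Tmem119 at -0.18 ± 0.14 (adjusted p = 0.668), P2ry12 at -0.20 ± 0.15 (adjusted p = 0.668) and Cx3cr1 at -0.37 ± 0.17 (adjusted p = 0.292). Cx3cr1 was lower in every WT animal (1234 to 1960 CPM) than in every APP/PS1 animal (1990 to 2361 CPM), and 1 of its 19 alternatives, DESeq2, called it (adjusted p = 0.0291). Of 24 homeostatic genes edgeR called Sema4b alone, with 4 at unadjusted p below 0.05. Limma voom called 2 higher and 1 lower, and DESeq2 1 higher and 2 lower. The list median was -0.19 beside -0.01 over all genes tested. On plain CPM the list summed to 28934 to 33075 in the WT animals and 35466 to 37455 in the APP/PS1 animals, with no overlap. The 4 identity markers summed to 6400 to 7374 CPM in WT and 8001 to 9179 CPM in APP/PS1 animals, also without overlap. This was not particular to these lists. Lysosomal, mitochondrial genome, chaperone, early disease-associated, phagocytic receptor, growth factor receptor and hippocampal neuron lists were also lower in WT without overlap. Lipid handling and cell cycle lists were higher in WT without overlap, and the rest of the 37 lists overlapped.

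Single genes of sterol and lysosomal lipid handling were higher in WT. Insig1, which retains the sterol sensor SCAP in the endoplasmic reticulum, stood at 530, 320, 668 and 517 CPM against 149, 113, 98.4 and 76.9 CPM (2.21 ± 0.30, adjusted p = 9.02e-05). Gm2a stood at 2964 ± 439 against 1299 ± 165 CPM (1.19 ± 0.17, adjusted p = 0.000159). In the cholesterol synthesis list 1 gene, Insig1, was higher of 20 tested and 1, Cyp51, lower, the latter call being lost without any 1 of 7 of the 8 animals. Of 34 lysosomal genes edgeR called Gm2a higher and 0 lower (7 at unadjusted p below 0.05), while limma voom called 0 higher and 3 lower and DESeq2 1 higher and 5 lower. The median of that list was -0.24 beside -0.01 over all genes tested, and its summed level on plain CPM was 24633 to 27945 in the WT animals and 31312 to 34526 in the APP/PS1 animals, with no overlap. Sept10, a septin, stood at 1379, 1225, 1140 and 912 CPM against 264, 166, 462 and 162 CPM (2.14 ± 0.30, adjusted p = 0.000136). Of 27 transcription factors tested Bhlhe41 (0.91, adjusted p = 0.00248) and Ets1 (1.19, adjusted p = 0.00554) were higher, with adjusted p of 0.0664 and 0.0921 without the libraries whose tag goes against the title. Of 11 complement genes tested, 1 was lower and 1, C5ar2, higher at 2032 against 864 CPM (1.23 ± 0.24, adjusted p = 0.00369).

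Genes lower in WT than in APP/PS1 hippocampus were fewer by edgeR, but not by DESeq2. Fth1, the ferritin heavy chain, stood at 552, 405, 442 and 345 CPM against 682, 930, 1011 and 714 CPM (-0.94 ± 0.18, adjusted p = 0.00459), with an adjusted p of 0.152 without the libraries whose tag goes against the title and 0.0550 without APP/PS1 animal 3. Elf2, an ETS factor gene, gave 1 count in WT hippocampus against 107 ± 24.1 CPM in APP/PS1 animals (adjusted p = 6.16e-05). Hint3 and Pigq were at 0 in WT, at least 185-fold and 179-fold lower against 3 counts over the group, and both lost their calls without the libraries whose tag goes against the title. Of 20 early disease-associated and lysosomal genes tested edgeR called 1, Fth1, with 3 at unadjusted p below 0.05, limma voom called 0, and DESeq2 called 4 lower. On plain CPM that list summed to 15096 to 19748 in the WT animals and 21063 to 23715 in the APP/PS1 animals, with no overlap. Of 19 core disease-associated genes edgeR called 0, with 5 at unadjusted p below 0.05, limma voom 0, and DESeq2 2 higher and 1 lower. Of 25 interferon response genes edgeR called 0, with 5 at unadjusted p below 0.05, limma voom 0, and DESeq2 2 higher and 3 lower. Of 9 MHC class II genes edgeR and limma voom called 0, with 1 at unadjusted p below 0.05, and DESeq2 called 1.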

How the data were processed

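Single microglia were profiled in 36 libraries, of which the 6 of WT hippocampus are described. The submitters' processing notes name the build GRCm38 (mm10) and, as tools, UMI-tools 0.5.3, HISAT2 2.1.0 and featureCounts 1.6.0, without their settings. The deposited values are raw, unnormalized counts for each gene in each barcode. The sources used here do not say whether reads sharing a molecular identifier were merged. In WT hippocampus 28.8% of non-zero entries were 1, and the 39.1% at 20 or more held 93.6% of counts, so counts may be reads, and floors of 3 counts cover counting error only. Symbols and positions matched all 26348 gene identifiers.

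Barcodes with at least 200 genes were kept, and doublets were not called. Groups follow the titles, whereas the genotype tag differs from the title in 17 of 36 libraries. Counts of the cells of each animal title, region and gate were added up, giving 23 replicates in 6 groups. The titles APP1-2 and APP2-3 of CD11c-positive APP/PS1 hippocampus were each taken as 1 replicate, although both name APP2. edgeR 4.0.16 (R 4.3.3, limma 3.58.1) used TMM, filterByExpr, 1 mean per group and the quasi-likelihood test at an adjusted p of 0.05, and DESeq2 1.42.0 and limma voom were alternatives. Detection, spread and co-expression used Python 3.11.15, numpy 2.4.6 and scipy 1.17.1 with random thinning to 5000 counts. The scripts were tested on simulated data with known answers. Titles give WT cortex and WT hippocampus the same names WT1 to WT4, so these numbers were taken as the same animals. Deviations of same-named samples correlated between -0.044 and 0.043. WT and APP/PS1 numbers name different animals.

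Genes were named by a rule: the 4 identity markers with Itgax, App and Prnp, the 30 highest genes, up to 4 leading members of each of 37 lists with those past the threshold, the 15 most and 10 least variable genes, the 12 most correlated pairs, and the 8 largest folds each way among non-overlapping called genes at 50 CPM or more. Not all are printed, and some genes are not reported here. Genes chosen after their values were seen are Jund, Card9, Gapdh, the C1q chains, the genes of the single MHC class II cell and the 2 co-expression blocks. The members and the lists were chosen with earlier results of these data known. Alternatives changed scaling, filter, test, covariate, depth, libraries and replicates. The removal of donor entries, thinning of detection to 5000 counts, the quadratic trend and the correlation adjusted for genes per cell were chosen after seeing the data.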

Additional observations from a re-analysis of the deposited data

Results flagged for a closer look

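In 8 of 76 values tested over the 4 WT hippocampal animals, 1 animal stood farther from the other 3 than a gap test at the 95% level allows. Chance gives about 1 in 20. WT2 was low for Cx3cr1, at 1220 CPM beside 1608 to 1674 CPM in the other animals, and its only library carries the tag tg. WT4 was high for MHC class II genes, at 1901 CPM summed beside 315 to 564 CPM, of which 1 cell held most. The phagocytic receptor list had a low animal at 6347 CPM beside 7820 to 8057 CPM. The immediate early list had a high animal at 2249 CPM beside 1958 to 1972 CPM, and the cell cycle list, nearly all Tubb5, one at 4794 CPM beside 3690 to 3865 CPM. Border-associated macrophage markers had a low animal at 67.3 CPM beside 119 to 129 CPM. Ribosomal protein genes had a high animal at 14246 CPM beside 9555 to 10231 CPM, and Dhrs3, a retinal reductase gene among the leading 30, had a low one at 5139 CPM beside 5487 to 5532 CPM. What set these animals apart was not tested.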

How the results depend on the processing

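Against WT cortex 243 genes were called. The count was 250 with RLE factors, 252 with library totals, 308 with no low-count filter, 247 with cells of 500 genes or more and 243 with donor entries removed. It was 505 with limma voom and 1534 with DESeq2, 17 with genes per cell as covariate, 0 without the libraries whose tag goes against the title, and 96 to 324 without single replicates. With only the 2 groups it was 0 without and 0 with the replicate block. Against APP/PS1 hippocampus 226 were called, 413 with limma voom, 1027 with DESeq2, 75 with the covariate, 106 without those libraries and 169 to 259 without single replicates. With only the 2 groups it was 99 without and 69 with the replicate block, although title numbers there name different animals. The fits with fewer samples have fewer degrees of freedom, and otherwise the cause was not tested. Of 54 named genes called against cortex, 0 kept the call in every alternative, and of 56 called against APP/PS1 hippocampus 22 did. Called genes had 0 changes of direction. P2ry12 changed sign against cortex in cells of 500 genes or more (-0.0225), and against APP/PS1 hippocampus P2ry12 (0.00576) and App (0.0455) did with the covariate. Genes per cell differed by -178 to -130 (cortex) and -198 to -169 (APP/PS1) without single replicates, and the mitochondrial share by -0.710 to -0.363 and -0.495 to -0.451 percentage points. Under the replicate block as sign flips, differences of -153 and -185 genes and -0.602 and -0.477 points had an exact p of 0.125, the smallest possible. For -185 genes and -0.477 points, from APP/PS1 hippocampus, the title numbers name different animals, so the block pairs no animals there. Without the libraries whose tag goes against the title the differences were -157 and -175 genes and -0.351 and -0.437 points, at the smallest exact p of 0.1. Genes found in at least 50% of cells numbered 182, but 93 at 5 counts, 92 at 2000 counts per cell, and 169 to 193 without single replicates. Genes more variable than their neighbours numbered 118, with 130 to 139 without single replicates. Pairs at a rho of 0.2 numbered 80, but 31 at 2000 counts per cell, 135 without the libraries whose tag goes against the title, 23 after adjustment for counts and genes per cell, and 100 to 124 without single replicates. With animals or libraries left out, fewer have to agree, so the counts of variable genes and of pairs can rise by the rule alone. Depth limits the detection counts, and genes of 100 to 500 CPM had a median CV of 46.6% between the 4 animals.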

Other observations

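Housekeeping pathways took a modest share of the counts of WT hippocampal microglia. Cytosolic ribosomal protein genes summed to 11020 ± 2167 CPM over 87 genes, of which 36 reached 100 CPM, with Rps25 highest. Nuclear-encoded respiratory chain genes summed to 2628 ± 411 CPM over 25 genes, and glycolysis and hypoxia genes to 1329 ± 255 CPM over 20 genes, led by Hk2. Transcripts of the mitochondrial genome summed to 6678 ± 599 CPM. Chaperone genes summed to 2757 ± 325 CPM, led by Hspa5 of the endoplasmic reticulum, while the stress-induced Hspa1a and Hspa1b were at 0. Genes of iron handling and oxidative stress summed to 4533 ± 701 CPM, led by superoxide dismutase Sod1.

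TGF-beta signalling genes summed to 5766 ± 783 CPM, of which the SMAD inhibitor Skil gave 3335 CPM and the receptor Tgfbr1 803 CPM. Actin and motility genes summed to 22480 ± 1846 CPM, about equally shared between Actb and the other members. Purinergic genes summed to 5487 ± 690 CPM, with P2ry13 at 306 ± 24.0 CPM beside P2ry12 at 1940 CPM, and Adora1 at 0. Cholesterol synthesis genes summed to 800 ± 225 CPM, with Insig1 among the leading members.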
